A study of Mus musculus with 2 samples.

Results

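Mir191, Mir425, Mir186, Mir151, Mir140 and Mir340 are microRNA genes that lie inside longer host transcripts and are known from many tissues, a breadth that 1 tissue cannot check. These 6 genes were taken by symbol from the 1973 gene rows of the deposited count tables, by Ensembl identifier in GENCODE M21. All 6 were found, and all 6 passed the minimum of 10 reads in at least 1 library. Mir191 has no row of its own in the tables. Its reads were taken from the row of Gm24083 (ENSMUSG00000092915.1), a hairpin annotated on the other strand of the same locus, in the column that counts the opposite strand.

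The tissue was hindbrain of healthy mouse embryos of strain B6NCrl at embryonic day 15.5, with males and females pooled. No mutation or treatment was given in the labels. Replicate 1 pooled 78 embryos and replicate 2 pooled 62, and each pool gave 1 small RNA library, so the series has 1 group of 2 biological replicates. The only contrast is replicate 1 over replicate 2, and it compares these 2 libraries, not conditions.

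A microRNA gene is transcribed as part of a longer RNA from which a hairpin is cut, and then 1 or both arms of the hairpin are loaded into a silencing complex. The arm pairs with messenger RNAs mainly through its seed, bases 2 to 8. Where the hairpin lies in an intron of a protein-coding gene on the same strand, both can be made from 1 primary transcript. Mir191 is often used as a reference in measurements of microRNA levels because of its wide expression. Mir140 is best known from cartilage, and mice without it have skeletal defects.

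The mature sequences and their seeds show how these genes differ from each other, so they are given before the levels. The RefSeq table used here (GRCm38.p6) matched 5 of the 6 genes with 9 mature sequences in all. Mir151 and the 5p arm of Mir140 are named only and stand outside the counts of seeds below. The lines give each from 5′ to 3′, with the seed in capitals.

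mmu-miR-191-5p: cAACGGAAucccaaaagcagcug

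mmu-miR-191-3p: gCUGCACUuggauuucguuccc

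mmu-miR-425-5p: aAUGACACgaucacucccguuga

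mmu-miR-425-3p: aUCGGGAAugucguguccgcc

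mmu-miR-186-5p: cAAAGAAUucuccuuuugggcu

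mmu-miR-186-3p: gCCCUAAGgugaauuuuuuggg

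mmu-miR-140-3p: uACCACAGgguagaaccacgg

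mmu-miR-340-5p: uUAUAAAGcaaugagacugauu

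mmu-miR-340-3p: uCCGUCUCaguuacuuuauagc

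No seed was shared between these 9 sequences, and 7 of them shared their seed with none of the other mature names in that table, which holds 1679 in all. The seed of miR-425-5p is also that of miR-489-3p, and the seed of miR-140-3p is also that of miR-497b. Both partners were close to the limit of detection. Mir489 had 4 reads in replicate 1 and 5 in replicate 2, and Mir497b had 2 reads in replicate 1 and 0 in replicate 2, where a count of 0 allows up to 0.618 CPM. The partner sequences below differ from the members outside the seed.

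mmu-miR-489-3p: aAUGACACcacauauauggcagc

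mmu-miR-497b: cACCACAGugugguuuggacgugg

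The counts join both arms of a hairpin, so how the reads of a gene divide between its 5p and 3p arms is not given by the tables. The 9 mature sequences ranged in GC content from 27.3% for miR-340-5p to 61.9% for miR-425-3p. Among whole hairpins, those of Mir186 (33.8% GC) and Mir340 (37.8%) lay below 40.4%, the 10th percentile of the 368 tested genes with a RefSeq hairpin. The hairpins of Mir140 (52.9%), Mir191 (54.1%) and Mir425 (54.1%) lay close to the median of 51.1%. Predicted folding energies ran from -39.1 kcal/mol for Mir140 to -31.7 for Mir425, against a median of -36.5 over the same 368 genes. These totals depend on hairpin length. Per base they ran from -0.56 for Mir140 to -0.35 for Mir340, with Mir191 and Mir186 at -0.47 and Mir425 at -0.37, against a median of -0.43. These features describe the genes, and no relation to their level was tested.

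The genomic places divide the genes into a pair in a non-coding transcript and 4 in introns of protein-coding genes. On build mm10 (GRCm38), Mir191 lies on chromosome 9 from 108568319 to 108568392 and Mir425 (ENSMUSG00000065579.1) from 108568777 to 108568861, both on the plus strand and 384 bases apart. GENCODE M21 places both in the only exon of a transcript of the long non-coding RNA gene 4833445I07Rik, on the plus strand from 108567533 to 108569174. Another transcript of that gene has Mir191 in an intron. The protein-coding gene Dalrd3, often named as host of the pair, starts 1024 bases downstream of Mir425 in this annotation, so for these 2 genes a protein-coding host on the same strand is not annotated.

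Mir186 (ENSMUSG00000065431.1; chromosome 3, 157544279 to 157544349) lies in intron 8 of Zranb2, which encodes a zinc finger protein of the splicing machinery. Mir151 (ENSMUSG00000065612.1; chromosome 15, 73254815 to 73254882, minus strand) lies in intron 22 of Ptk2, the gene of focal adhesion kinase, which links cell adhesion to signalling. Mir140 (ENSMUSG00000065439.1; chromosome 8, 107551244 to 107551313) lies in intron 16 of Wwp2, a ubiquitin ligase gene, and within an exon of a Wwp2 transcript that retains that intron. Mir340 (ENSMUSG00000065417.1; chromosome 11, 50069702 to 50069799) lies in intron 2 of Rnf130, the gene of a RING finger protein. Intron numbers are those of 1 principal transcript per host. The RNA of the hosts was not measured in these libraries of small RNA.

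The libraries held 3949248 reads assigned to gene rows in replicate 1 and 4853775 in replicate 2, which are 47.4% and 46.2% of all their reads. Levels are given as counts scaled to 1e6 of these reads (CPM), with the SD over the 2 libraries. Intervals are exact and cover counting error only, since reads without molecular identifiers are not independent molecules. A further 35.4% of reads in replicate 1 and 34.2% in replicate 2 were placed at several loci and are listed apart from the genes. The tissue label was checked on its markers. Mir10a and Mir10b, the Hox cluster microRNAs of hindbrain and spinal cord, summed to 90608 CPM in replicate 1 and 130024 CPM in replicate 2. Mir137 had 7887 CPM in replicate 1 and 8786 CPM in replicate 2. The 3 Mir124a genes, whose near-identical copies can lose reads to the group placed at several loci, had 6 to 21 reads each. Among the Mir9 genes, Mir9-3 had 504 CPM in replicate 1 and 644 CPM in replicate 2. Mir9-2 had 6 reads in replicate 1 and 17 in replicate 2, and Mir9-1 was not found.

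The 6 genes summed to 1.38% of the reads on genes in replicate 1 (exact 95% interval 1.37 to 1.39) and 1.39% in replicate 2 (1.38 to 1.4). Mir151 gave the largest part of these reads, 39.7% in replicate 1 and 37.2% in replicate 2. Mir140 gave 24.7% and 26.9%, and Mir191 gave 20.9% in each. Mir425, Mir340 and Mir186 made up the rest, each with 3.81% to 6.66%.

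Mir151 had 21623 reads (5475 CPM) in replicate 1 and 25143 reads (5180 CPM) in replicate 2, a mean of 5328 ± 209 CPM (SD, n = 2). It was the highest of the 6 and stood at place 36 of all 1973 rows. Mir140 had 13491 reads (3416 CPM) in replicate 1 and 18188 reads (3747 CPM) in replicate 2, a mean of 3582 ± 234 CPM at place 50. Replicate 1 was the higher library for Mir151 and the lower one for Mir140, and the values of these 2 genes did not overlap.

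Mir191 had 11408 reads (2889 CPM) in replicate 1 and 14128 reads (2911 CPM) in replicate 2, a mean of 2900 ± 15.6 CPM at place 56. Its cluster partner Mir425 had 3600 reads (912 CPM) in replicate 1 and 4500 reads (927 CPM) in replicate 2, a mean of 919 ± 11.0 CPM at place 101. Both libraries were nearly level for each gene of this pair.

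Mir340 had 2334 reads (591 CPM) in replicate 1 and 2850 reads (587 CPM) in replicate 2, a mean of 589 ± 2.71 CPM at place 116. Mir186 had 2077 reads (526 CPM) in replicate 1 and 2780 reads (573 CPM) in replicate 2, a mean of 549 ± 33.1 CPM at place 120. Mir340 had the smallest SD relative to its mean, 0.459%, and Mir140 the largest, 6.54%. Over the 85 genes whose mean CPM lay within the range of the 6, the median was 5.13%. The place of Mir340 depended on scaling. After the TMM scaling used below, its log2 ratio between the libraries was 0.026, against 0.006 for Mir191 and -0.008 for Mir425. Its counting interval in replicate 1, 567 to 615 CPM, was wider than the difference between its libraries.

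**Figure D1:**
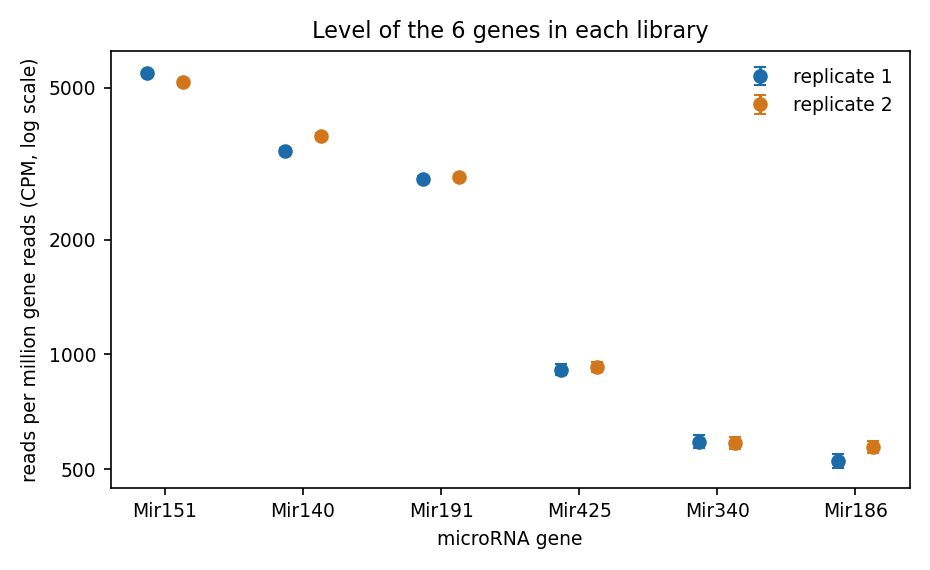
Level of each gene in replicate 1 and replicate 2, in CPM on a log axis, with bars for the exact 95% Poisson interval of the count, mostly smaller than the points. Mir151 stands highest at 5475 and 5180 CPM and Mir186 lowest at 526 and 573 CPM, and the order of the 6 is the same in both libraries.

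The order of reads was Mir151, Mir140, Mir191, Mir425, Mir340 and Mir186 in both libraries, and no neighbouring pair of this order overlapped between its library values. The gap between Mir340 and Mir186 was the narrowest. Mir340 exceeded Mir186 1.12-fold in replicate 1 (exact interval 1.06 to 1.19) and 1.03-fold in replicate 2 (0.973 to 1.08), so in replicate 2 they were not separable by counting error. Mir140 exceeded Mir191 1.18-fold in replicate 1 and 1.29-fold in replicate 2. The widest gap between neighbours was that of Mir191 over Mir425.

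It ranks reads rather than molecules, since arms can be captured with unequal efficiency. Reads were taken to come from mature arms and not from whole hairpins, which the counts cannot show, so levels were not divided by hairpin length. Per hairpin base, the mean level was 78.3 CPM for Mir151, 51.2 for Mir140, 39.2 for Mir191 and 10.8 for Mir425. On that scale Mir186, at 7.74 CPM per base over a hairpin of 71 bases, came before Mir340, at 6.01 over 98 bases. The order of the 4 genes above them was the same on both scales.

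Mir191 and Mir425 lie in 1 cluster, and their ratio of reads can be read within a library with no scaling. Mir191 exceeded Mir425 3.17-fold in replicate 1 (exact interval 3.05 to 3.29) and 3.14-fold in replicate 2 (3.04 to 3.25), a mean of 3.15 ± 0.0207. The ratio changed by 0.013 on the log2 scale between the libraries. Over the 89 pairs of neighbouring microRNA genes on 1 strand within 10 kb, with at least 100 reads in each library, that change had a median of 0.135 and ran up to 0.59. The ratio of 4 other pairs changed less. Counting error moves the ratio more in pairs with fewer reads, and the pairs were not matched by depth. Pairs of 1 cluster share their libraries and often their transcript, and they are not independent of each other, so this is a description.

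**Figure D2:**
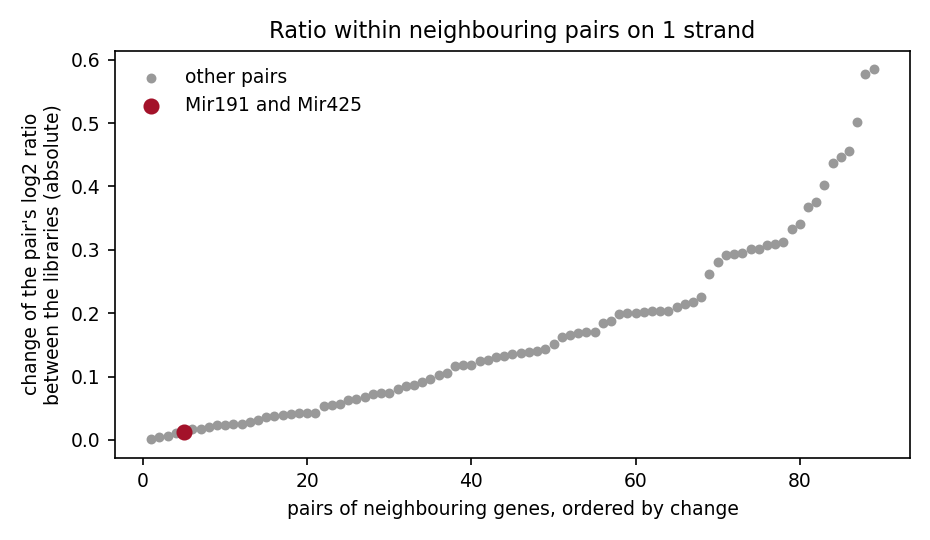
Absolute change between the libraries of the log2 ratio of reads within each of 89 neighbouring pairs of microRNA genes on 1 strand, ordered by size. The pair of Mir191 and Mir425 is the fifth of the 89, at 0.013 against a median of 0.135, and the pairs were not matched by depth.

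Among all 15 pairs of the 6 genes, the ratio within a library changed least for Mir140 over Mir186, which was 6.50 in replicate 1 and 6.54 in replicate 2. These genes lie on different chromosomes. It changed most for Mir151 over Mir140, with values of 1.60 in replicate 1 and 1.38 in replicate 2, a change of 1.159-fold. Mir191 over Mir340, on different chromosomes too, was 4.89 in replicate 1 and 4.96 in replicate 2. On the log2 scale the change was 0.010 for Mir140 over Mir186, 0.020 for Mir191 over Mir340 and 0.213 for Mir151 over Mir140. These pairs were named for the size of their change, and no cause of a steady ratio was tested.

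The libraries were compared for each of 427 genes by the exact two-sided conditional binomial test after TMM scaling, with Benjamini-Hochberg adjustment over all 427. Of the 6 genes, 3 differed beyond counting error, against 35.8% of the genes tested. Deeply counted genes are called more often by this test. Of the 85 genes within the level range of the 6, 68.2% were called. Mir151 was higher in replicate 1, as were 20.6% of the genes tested, and Mir140 and Mir186 were higher in replicate 2, as were 15.2%.

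The log2 ratio of replicate 1 over replicate 2 was 0.10 for Mir151 (exact interval 0.07 to 0.12; adjusted p = 4.1e-12 by the exact binomial test). It was -0.12 for Mir140 (-0.15 to -0.08; adjusted p = 7.38e-12, exact binomial test) and -0.11 for Mir186 (-0.19 to -0.02; adjusted p = 0.0319, exact binomial test). All 3 differences were small, at most 1.08-fold.

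Mir191, Mir425 and Mir340 did not pass the threshold. The log2 ratio was 0.01 for Mir191 (exact interval -0.03 to 0.04), -0.01 for Mir425 (-0.07 to 0.06) and 0.03 for Mir340 (-0.05 to 0.11). The median log2 ratio of the 6 genes was 0.00, and that of all genes tested 0.01.

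None of the 6 genes reached a 1.5-fold difference, against 16.6% of the genes tested, most of which have few reads. Within the level range of the 6, 1 of 85 genes reached it, so the count of 0 does not set the 6 apart from genes of similar level. When every gene was allowed a biological coefficient of variation of 0.1, close to the 10.4% estimated over all genes from these 2 libraries, edgeR's exact test called 0 of the 6 and 1.41% of all genes. At that setting 0 of the 6 had an unadjusted p under 0.05, and the lowest was 0.569 for Mir140 by the same exact test. The differences of Mir151, Mir140 and Mir186 exceeded counting error and were not called once a variation of that size was allowed. With 1 library on each side, differences of at most 1.08-fold are too small to be called at that setting. The count of 0 there follows from the construction of the test.

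**Figure D3:**
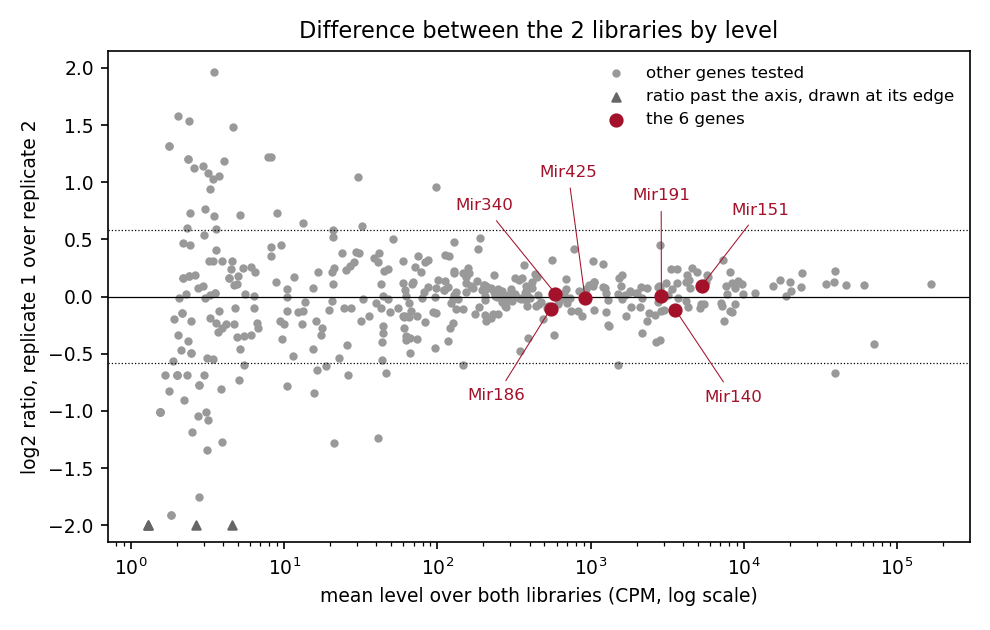
Log2 ratio of replicate 1 over replicate 2 after TMM scaling against mean CPM on a log axis for the genes tested, with the 6 genes in red and dotted lines at 1.5-fold. The 6 genes lie between -0.12 and 0.10; ratios past the axis are drawn at its edge, and 1 gene with no read in replicate 1 has no ratio and is left out.

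Mir140 was set beside microRNAs of cartilage and mesenchyme, which a dissection of hindbrain could carry along. All 8 genes of that list were found, and 7 had at least 10 reads in a library. Their summed level was 6859 CPM in replicate 1 and 6122 CPM in replicate 2, mostly from Mir143 of smooth muscle and pericytes. Of the 7 genes, 4 were higher in replicate 1 past the exact binomial threshold and 0 were higher in replicate 2. Of all genes tested, 20.6% were higher in replicate 1 and 15.2% in replicate 2 by that test. Mir140 was higher in replicate 2 by a small difference (log2 ratio -0.12), and no relation between these directions was tested.

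Mir455, a microRNA of cartilage that lies in a collagen gene, had 250 CPM in replicate 1 and 221 CPM in replicate 2. Mir140 exceeded Mir455 in both libraries. No library of cartilage was analysed here to compare with, and the source of the Mir140 reads was not tested. In a whole tissue, fewer cells of a type and less RNA per cell cannot be told apart. The part of other cell types in the levels of the 6 genes was not tested.

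Markers of other cell types were measured in the same libraries. Endothelial Mir126a had 25628 CPM in replicate 1 and 22535 CPM in replicate 2. The 3 leukocyte markers found summed to 477 CPM in replicate 1 and 376 CPM in replicate 2, and the 2 erythroid markers to 173 and 124 CPM. The 3 striated muscle markers summed to 27.1 CPM in replicate 1 and 23.3 CPM in replicate 2, with Mir1a-1 and Mir133a-1 at 0 reads in both. The mature sequences of Mir1a-1 and Mir133a-1 also come from a second locus. Their reads can be placed at several loci, so these counts of 0 do not show absence. The 8 neural markers found summed to 11721 CPM in replicate 1 and 13374 CPM in replicate 2. Past the exact binomial threshold, 4 of these 8 were higher in replicate 2 and 0 in replicate 1. Mir10a and Mir10b were also called higher in replicate 2, the direction of Mir140. Mir126a, 2 leukocyte markers and 2 erythroid markers were called higher in replicate 1, and 0 striated muscle markers were called. Whether the direction of Mir140 is related to that of any of these lists was not tested.

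The levels were next placed among other microRNAs within host genes. In M21, 723 of the gene rows lie in an intron of a protein-coding gene on their strand, and 197 of these were tested. Of the 723, Mir151 stood at place 16, Mir140 at 25, Mir340 at 48 and Mir186 at 50. The median level of the 197 was 44.3 CPM and that of all 427 tested genes 95.9 CPM, against 1910 CPM over the 6 genes. The 6 were gathered with their levels in these libraries known, so the distance is a description.

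A second list held 28 other microRNAs in hosts known to be transcribed in most tissues, a breadth not checked here. All 28 were found and tested. M21 does not place Mir324, 1 of the 28, in an intron of a protein-coding gene on its strand. The summed share of gene reads of the 28 was 14.8% in replicate 1 and 14.4% in replicate 2, with a median level of 966 CPM. Of the 28, 9 were higher in replicate 1 and 5 in replicate 2 by the exact binomial test, and the median log2 ratio was 0.01. Over all genes tested the shares were 20.6% and 15.2%, and deeply counted genes are called more often. The list was led by Mirlet7g in Wdr82 at 61016 ± 2431 CPM, Mir30e in Nfyc at 18743 ± 142 CPM and Mir26b in Ctdsp1 at 15586 ± 607 CPM (SD, n = 2). Each of these 3 exceeded Mir151. At the other end stood Mir26a-2 (22.8 CPM), Mir103-1 (5.57 CPM) and Mir26a-1 (5.09 CPM), whose mature sequences also come from a second locus, so their reads can be placed at several loci and be missing here.

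**Figure D4:**
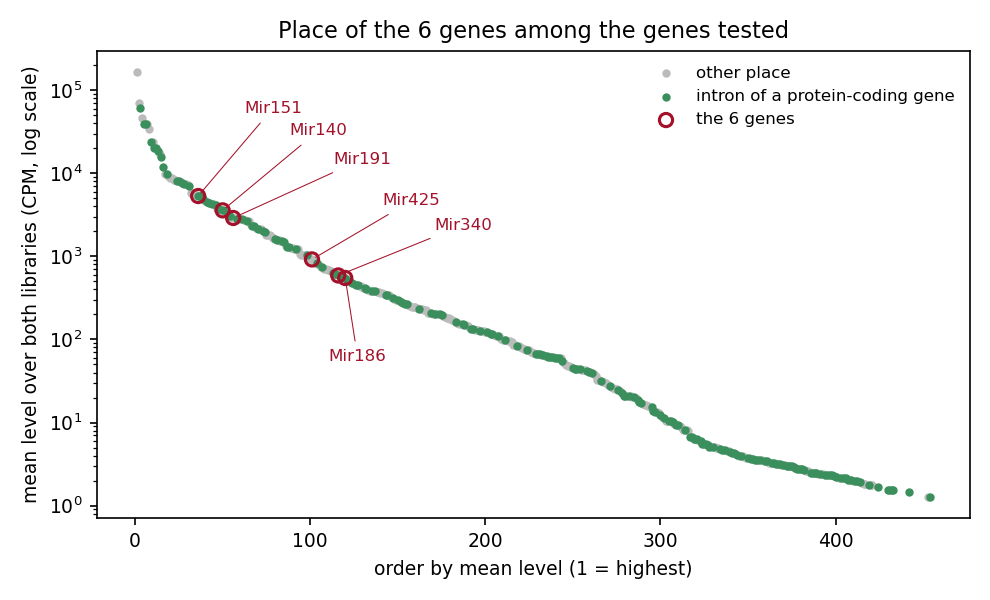
Mean CPM of the genes tested, on a log axis, against their place in the order of levels, with genes in an intron of a protein-coding gene in green and the 6 genes ringed in red. The 6 lie between place 36 and place 120.

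Such a loss was looked for at the 6 genes themselves. The longest stretch that their hairpins share with another of 2202 annotated microRNA genes, on either strand, was 17 bases for Mir151, with Mir28c. It was 15 bases for Mir340, 13 for Mir425 and Mir186, and 12 for Mir191, and for Mir140 no shared stretch of 12 bases or more was found. Each is shorter than any of the 9 mature sequences given above, which hold no arm of Mir151 and not both arms of Mir140. The aligner and the trimming are not stated, so these lengths cannot show whether reads of the 6 genes were lost. The search did not cover copies that are not annotated as microRNA genes.

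Mir28c, which was not analysed here, belongs with Mir28a and Mir708 to the miR-28 family of hairpins that includes Mir151. Mir708, in an intron of Tenm4, a teneurin gene of the nervous system, had 2388 CPM in replicate 1 and 2289 CPM in replicate 2. Mir28a, in an intron of Lpp, had 600 CPM in replicate 1 and 635 CPM in replicate 2. Mir151 was thus the highest of the 3 family genes measured, in both libraries.

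Almost no reads lay on the strand opposite to the 6 microRNAs. Mir140 had 1 such read in replicate 1 and 0 in replicate 2, Mir425 had 0 and 2, and Mir151, Mir191, Mir340 and Mir186 had 0 in both libraries. At the locus shared by Mir191 and Gm24083, all 11408 reads in replicate 1 and all 14128 in replicate 2 lay on the strand of Mir191. A count of 0 for Gm24083 itself allows up to 0.0263% of the reads at this locus in replicate 1 and 0.0212% in replicate 2.

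The genes most like each member were found by the distance between their log2(CPM + 1) values over the 2 libraries. The nearest to Mir151 was Mir106b of the Mcm7 host gene (5148 CPM in replicate 1 and 5448 in replicate 2), at a distance of 0.115. The nearest to Mir140 was Mir381 of the imprinted Dlk1-Dio3 region (3671 and 3740 CPM; 0.104). For Mir191 it was Mir296 (2900 and 2784 CPM; 0.065). With 2 libraries, this measure is mainly one of level.

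For Mir425 the nearest gene was Mir351 (945 CPM in replicate 1 and 914 in replicate 2), at a distance of 0.056. For Mir340 it was Mir341 of the Dlk1-Dio3 region (606 and 616 CPM; 0.078), and for Mir186 it was Mirlet7c-1 (539 and 580 CPM; 0.039). No member was the nearest gene of another. Mir341, which is also the gene next above Mir340, was the only one of these 6 nearest genes whose library values did not overlap those of its member.

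Directly above and below in the order of mean levels stood Mir23a and Mir106b around Mir151, Mir92b and Mir21a around Mir140, and Mir18 and Mir324 around Mir191. Mir351 and Mirlet7c-2 stood around Mir425, Mir341 and Mir9-3 around Mir340, and Mir27b and Mir330 around Mir186. Of these 12 neighbours, 11 overlapped their member over the 2 libraries, so the places of the 6 genes in the order are not sharp. Mir106b, Mir324 and Mir330 are also on the list of 28.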

How the data were processed

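The authors deposited 1 table of raw read counts per library, on build mm10 with GENCODE M4, per the labels and the notes that accompany them. The aligner, the trimming and the counter are not stated in the sources used here. Each gene row has a count for both strands and for each strand. The 4 rows that name no gene, with 51.6% of the reads in replicate 1 and 53.0% in replicate 2, stayed out of totals and tests. Here the genes' own strand was used, with Gm24083 on its opposite strand, and CPM was the count per 1e6 of that total. The tables have no header, and the genes' own strand was taken to be the one with more reads in all.

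Libraries were compared over 427 genes, those reaching 10 reads in either library. Scaling was TMM in edgeR 4.0.16 (R 4.3.3), followed by an exact conditional binomial test with Benjamini-Hochberg adjustment at 0.05. That test was run on simulated counts with counting error only, which hold no variation between pools. The alternatives were DESeq2 1.42.0 size factors, total counts, other count minimums, other totals, edgeR's exact test with an assumed variation, and each library alone. Symbols and places are from GENCODE M21, which matched 1894 of the identifiers. Mature sequences and hairpins are from RefSeq GRCm38.p6, folded with RNAfold 2.7.2. Python 3.11.15 and scipy 1.17.1 were used.

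The 6 genes, the lists and the rules for named genes (the 6, their neighbours in level, their nearest gene and the 3 highest of each list) were chosen with earlier results of these data known. Other list genes are named to complete a list, and Mir26a-2, Mir103-1 and Mir26a-1 were chosen after their values were seen.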

Additional observations from a re-analysis of the deposited data

How the results depend on the processing

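The 6 genes held 1.39% of the gene reads, 1.36% when the total took both strands and 0.649% of all reads in the libraries. These other totals rescale all 6 genes alike. The number of the 6 called by the exact binomial test was 3 with DESeq2 size factors, with total counts and with a minimum of 1 or 100 reads, and the called genes were Mir151, Mir140 and Mir186 each time, in the same direction. It was 0 by edgeR's exact test with a coefficient of variation of 0.1 and 0 with 0.2, by the construction of those tests. At 0.2 edgeR's exact test called 0 of all genes, with 12 at an unadjusted p under 0.05, and 0 of these 12 were among the 6. The log2 ratio of Mir191, which was not called, was 0.01 with TMM and -0.01 with DESeq2 size factors or total counts. No gene of the 6 reached 1.5-fold under any scaling or count minimum run. Per hairpin base, a scale chosen after seeing the data, the mean log2 ratio of Mir340 over Mir186 was -0.36, and in reads it was 0.10. With each library alone, Mir191 over Mir425 lay between 3.14 and 3.17. No comparison of the libraries can be made without one of them. No paired analysis was possible because the series has 1 group. The lowest count among the 6 genes was 2077 reads. For Mir191, Mir425 and Mir340 the counting interval of a library was wider than the difference between the libraries.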
